A study of Mus musculus with 9 samples.

Results

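Respiratory chain genes encode the subunits of the 5 enzyme complexes of oxidative phosphorylation. They were followed here in cultured fibroblasts of the synovium, the tissue that lines joints, grown from mouse paws injected with monosodium urate (MSU) crystals, the crystals of gout. Members were the rows of the expression table whose symbol named a subunit of NADH dehydrogenase (Nduf followed by a, b, c, s or v and a number), succinate dehydrogenase (Sdha to Sdhd), the cytochrome bc1 complex (Uqcr genes and Cyc1), cytochrome c oxidase (Cox4 to Cox8 genes) or ATP synthase (Atp5 genes), or a protein-coding gene of mitochondrial DNA (mt- genes). The rule took 98 of 47729 rows and left out 6 whose symbols mark them as pseudogenes (-ps). Of the 98 members, 85 lie in the nuclear genome and 13 in the mitochondrial genome. Complex I had 42 members, complex II 4, complex III 10, complex IV 23 and complex V 19, with Ndufa4 counted in complex IV, where its product is known to sit. The rule used symbols only and no measured value, but the members were chosen with earlier results of these data known.

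Complexes I to IV pass electrons from NADH and succinate to oxygen. Complexes I, III and IV pump protons across the inner mitochondrial membrane, and complex V uses the returning protons to make ATP. Complex II is built from nuclear genes only, while each of the other complexes joins subunits from both genomes. The nuclear genes are transcribed singly from their own promoters, whereas the mitochondrial genes are cut from long transcripts that run along each strand of the circular genome. Several cytochrome c oxidase subunits exist in alternative forms, among them forms known from muscle and forms known from cells short of oxygen. Synovial fibroblasts line and support the joint membrane and are known to rely on glycolysis when the joint is inflamed.

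All 9 libraries came from wild-type BALB/c mice, the cells had been through 5 passages, and RNA was taken on day 18. The 3 primed libraries came from left paws given MSU on day 0 and on day 9, the 3 non-primed libraries from right paws given MSU on day 9 only, and the 3 naive libraries from paws with no injection. Priming therefore coincides with the side of the paw. The labels name no animal, primed and non-primed paws need not come from different mice, and p-values measure only the spread between these samples. The cells came from collagenase-digested paws and were not sorted by any step the labels state.

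Values are rlog values, which are normalised counts on a log2 scale that draw weakly expressed genes towards their mean. The depth of the libraries is unknown. Testing with limma took the 15623 genes that varied and whose mean rlog reached 3, and a gene passed at a Benjamini-Hochberg adjusted p below 0.05 over all of them. Naive libraries varied most, with a median SD over all tested genes of 0.138 in primed, 0.103 in non-primed and 0.224 in naive libraries. The 12 fibroblast markers averaged 14.0 to 14.5 rlog in primed, 14.3 to 14.4 in non-primed and 14.0 to 14.7 in naive libraries. The 14 macrophage markers averaged 9.34 to 10.5 rlog in primed, 9.59 to 10.1 in non-primed and 7.21 to 9.62 in naive libraries. None was listed at 0, but Cd163 lay only between 1.31 and 1.94 rlog and was not tested. In bulk RNA of this kind, fewer cells of a type and less RNA per cell cannot be told apart.

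No respiratory chain gene passed the threshold in any comparison. Of 88 tested members, 0 were called between primed and naive cultures, where 0.102% of all tested genes were called. Between non-primed and naive cultures 0 were called, against 0.141% of all tested genes, and between primed and non-primed cultures 0 were called, against 0% of all tested genes. At an unadjusted p below 0.05 the comparison of primed with naive cultures held 12 members (13.6%, against 16.9% of all tested genes), of which 11 were higher (9.43% of all tested genes) and 1 was lower (7.43% of all tested genes). The comparison of non-primed with naive cultures held 5 members (5.68%, against 15.4%), all of them higher, where 8.58% of all tested genes were higher and 6.84% lower. That of primed with non-primed cultures held 1, Cox4i2, which was higher (1.14%, against 1.26%, with 0.57% of all tested genes higher and 0.691% lower). The smallest adjusted p of any member was 0.111, for Cox7a1 between primed and naive cultures (limma).

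Nuclear and mitochondrial members lay on opposite sides of 0 in their typical difference, without passing the test. The median difference of primed from naive cultures was 0.07 for the 81 tested nuclear members and -0.39 for the 7 tested mitochondrial members, against -0.00143 for all tested genes. For non-primed against naive cultures the nuclear median was 0.02 and the mitochondrial median -0.16, against 0.00884 for all tested genes. For primed against non-primed cultures the nuclear median was 0.03 and the mitochondrial median -0.25, against 0.000851. In primed cultures 54 of 81 nuclear members and 0 of 7 mitochondrial members were above naive cultures, where 49.8% of all tested genes were above and 50.2% below. In non-primed cultures 46 of 81 nuclear and 2 of 7 mitochondrial members were above naive cultures (51.7% of all tested genes were above and 48.3% below). In primed cultures 57 of 81 nuclear and 0 of 7 mitochondrial members were above non-primed cultures (50.3% of all tested genes were above and 49.7% below). The comparisons with naive cultures share the naive libraries, and those with primed cultures the primed ones, so these counts are not independent of each other.

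**Figure D1:**
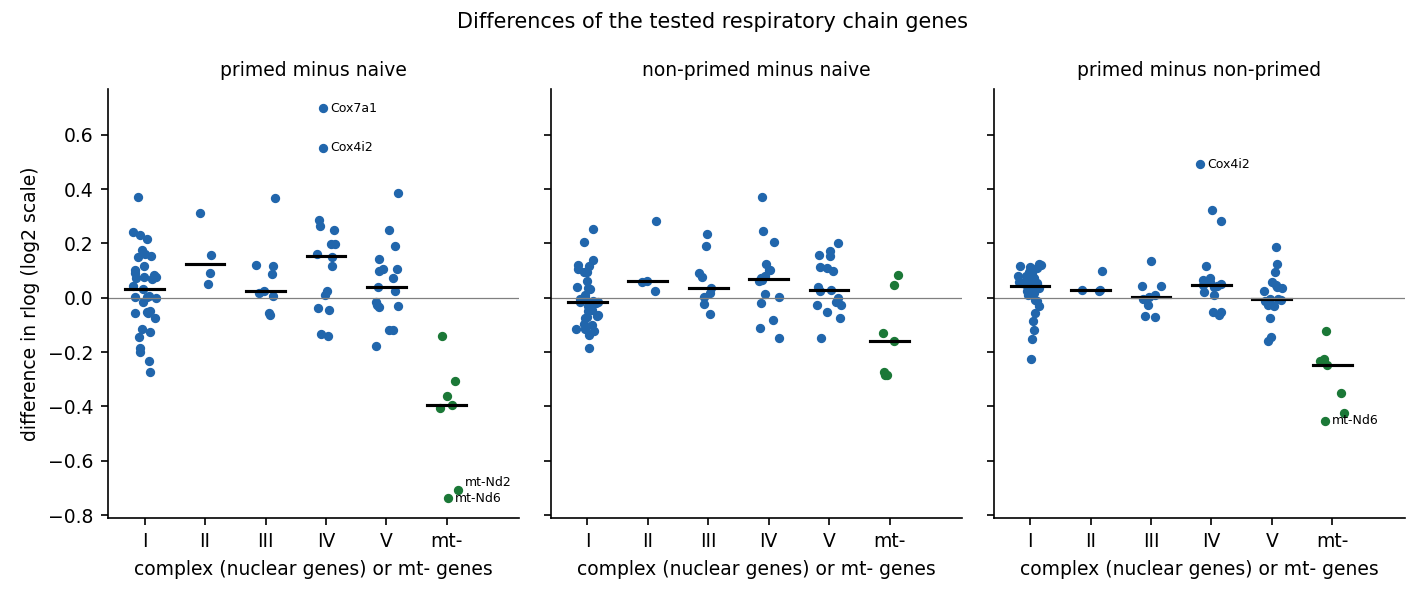
Difference in rlog (log2 scale) of each tested member between groups, by complex for nuclear genes and together for mt- genes, where points are genes and bars are medians. All 7 mt- genes lie below 0 in both comparisons with primed cultures on top, and Cox7a1 and Cox4i2 are the highest nuclear points for primed minus naive.

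The mitochondrial genome could be read only in part. Of its 13 protein-coding genes, 6 were listed at 0 in all 9 libraries: mt-Co2 and mt-Co3, core subunits of complex IV, mt-Atp6 and mt-Atp8 of the proton channel side of complex V, and mt-Nd3 and mt-Nd4l of the membrane arm of complex I. These genes lie side by side, and all 11 rows of the table between positions 6870 and 10173 of the mitochondrial genome (GRCm38), tRNA genes included, were listed at 0. The other 7 genes were measured and tested. Over the 22 mitochondrial tRNA genes, 18 were listed at 0.

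Nearly all of the sequence of 5 of these 6 genes is also present in the nuclear genome, and 2 examples are printed below. Each mitochondrial gene was cut into all its windows of 50 bases, and windows were looked up in the GENCODE M21 transcripts of genes elsewhere. For mt-Co2 100% of windows, for mt-Co3 99.9%, for mt-Atp6 99.5%, for mt-Nd4l 98.8% and for mt-Nd3 98.0% occurred in an annotated nuclear pseudogene. Their closest copies lie together on the minus strand of chromosome 1, from Gm10222 (24612407 to 24612700) to Gm28661 (24614885 to 24615565), and read along that strand they follow the order of the mitochondrial genes. For mt-Atp8, which lies between mt-Co2 and mt-Atp6 and was also listed at 0, 0% of windows were found in an annotated transcript. Only annotated transcripts were searched. The stretch of chromosome 1 between Gm10925, which ends at 24614651, and Gm28661, which starts at 24614885, was therefore not looked at. An unannotated copy of mt-Atp8 would have been missed. The tested genes shared less: 62.2% of windows for mt-Nd4, 51.1% for mt-Co1, 8.19% for mt-Nd2, 7.61% for mt-Nd5 and 0% for mt-Nd1, mt-Nd6 and mt-Cytb. The copies on chromosome 1 were themselves listed at 0 or at mean rlog values of -1.82 (Gm28437 and Gm10925) to 1.09 (Gm28438). The part of shared reads in the zeros was not tested.

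The start of mt-Co2, at chrM:7013-7072 on the plus strand, and the matching 60 bases of Gm28661, at chr1:24615506-24615565 on the minus strand, show a stretch that reads alike at both places (GRCm38, GENCODE M21 transcripts). Over 681 aligned bases the pair had 0 differences. Below them stand a stretch of mt-Nd2, which was measured, at chrM:4457-4516, and of its closest copy Gm13339, at chr2:22590459-22590518 on the minus strand. Capitals mark the 2 bases that differ in this stretch, and 17 of 510 aligned bases differed (96.7% identity).
mt-Co2: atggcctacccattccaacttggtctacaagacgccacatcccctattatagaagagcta
Gm28661: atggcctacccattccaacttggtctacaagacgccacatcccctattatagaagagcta
mt-Nd2: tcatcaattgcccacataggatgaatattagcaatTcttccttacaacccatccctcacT
Gm13339: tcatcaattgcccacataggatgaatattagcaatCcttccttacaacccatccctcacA

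**Figure D2:**
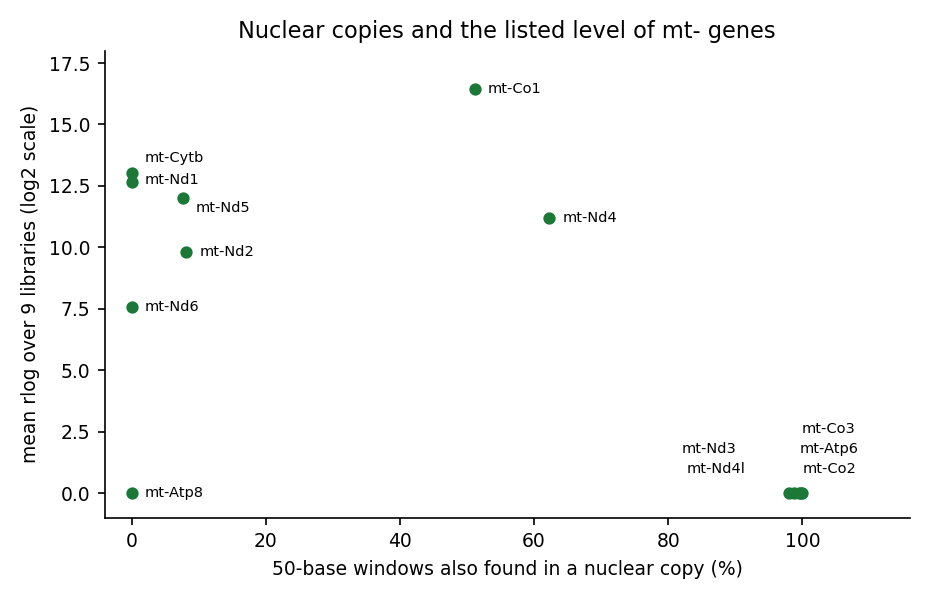
Mean rlog over the 9 libraries (vertical axis, log2 scale) of the 13 mt- genes against the share of their 50-base windows, in percent, that also occur in an annotated nuclear copy. The 5 genes above 95% sit at 0 with mt-Atp8, while mt-Co1 and mt-Nd4, with 51.1% and 62.2%, were measured.

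The 7 measured mitochondrial genes varied together from library to library. All 7 had their lowest value in primed 2, and their highest value was in naive 2 for 4 genes and in non-primed 3 for 3 genes. Averaged over the 7 genes as deviations from each gene's mean, the level was 0.25, -0.68 and -0.29 in primed 1, 2 and 3, 0.19, -0.37 and 0.33 in non-primed 1, 2 and 3, and 0.04, 0.40 and 0.14 in naive 1, 2 and 3. The primed mean was -0.24 ± 0.47, the non-primed mean 0.05 ± 0.37 and the naive mean 0.19 ± 0.19 (SD, n = 3 each), so the groups overlap. Within an injected group the spread of these genes was wide: their median SD was 0.436 in primed and 0.269 in non-primed libraries, against 0.176 in naive libraries, and only in the naive group was it below that of all tested genes (0.224).

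**Figure D3:**
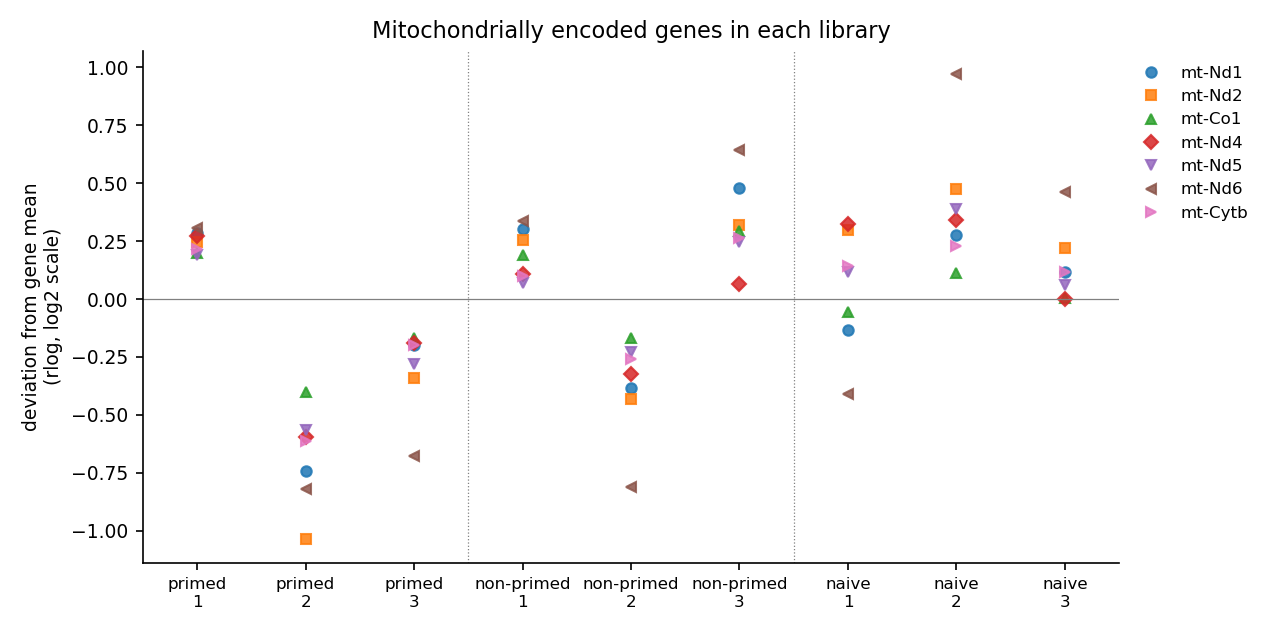
Deviation of each tested mt- gene from its own mean over the 9 libraries (rlog, log2 scale), 1 column of points per library. The 7 genes lie lowest in primed 2, and primed 1 stands at the level of non-primed 1 and above the zero line.

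Single genes followed the same course. mt-Nd2, a membrane subunit of complex I (chrM 3914 to 4951), had 10.07, 8.78 and 9.48 rlog in primed libraries, 10.08, 9.39 and 10.14 in non-primed libraries and 10.12, 10.30 and 10.04 in naive libraries. Primed 2 and primed 3 were below every naive library, while primed 1 lay within the naive range. The difference of primed from naive cultures was -0.71 (SE 0.31, unadjusted p = 0.0492, adjusted p = 0.296, limma), the only mitochondrial gene with an unadjusted p below 0.05, and that of non-primed from naive cultures was -0.28 (SE 0.31, adjusted p = 0.712). mt-Nd6, the complex I subunit read from the other strand (chrM 13552 to 14070), spread most, with 7.87, 6.74 and 6.88 rlog in primed, 7.90, 6.75 and 8.20 in non-primed and 7.15, 8.53 and 8.02 in naive libraries. Its groups overlap, with a difference of -0.74 for primed against naive cultures (SE 0.48, adjusted p = 0.461). The last bases of mt-Nd5 overlap it on the opposite strand, and since the strand setting of the counting is not given in the sources used here, their shared reads are uncertain.

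mt-Co1, the catalytic core of complex IV (chrM 5328 to 6872), differed least between primed and naive cultures: it had 16.64, 16.04 and 16.27 rlog in primed libraries, 16.63, 16.27 and 16.73 in non-primed libraries and 16.38, 16.55 and 16.44 in naive libraries. Primed 2 and primed 3 were the lowest of the 9 with non-primed 2, and its difference of primed from naive cultures was -0.14 (SE 0.22, adjusted p = 0.776). mt-Cytb, the electron-carrying core of complex III, differed by -0.36 (SE 0.21, adjusted p = 0.398), with primed values of 13.24, 12.41 and 12.83 against naive values of 13.16, 13.25 and 13.14 rlog. mt-Nd1, mt-Nd4 and mt-Nd5, membrane subunits of complex I, differed by -0.31, -0.39 and -0.41 (adjusted p = 0.619, 0.383 and 0.335, limma). Each had primed 1 inside or above the naive range. Against non-primed cultures, the 7 differences of primed cultures ran from -0.45 for mt-Nd6 to -0.12 for mt-Nd4, all with an adjusted p of 0.9999.

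The mitochondrial values rest on single libraries. The mean difference over the 7 genes was -0.44 for primed against naive cultures, and -0.22 without primed 2 or -0.68 without primed 1. For non-primed against naive cultures it was -0.14, and it turned to 0.07 without non-primed 2, while without naive 2 it was -0.04. For primed against non-primed cultures it was -0.29, and -0.07 without primed 2, -0.54 without primed 1, -0.51 without non-primed 2 and -0.15 without non-primed 3. Libraries of the same number gave primed minus non-primed values of 0.05, -0.31 and -0.62 for numbers 1, 2 and 3. Across all genes the deviations of these pairs correlated at r = 0.4181, 0.6077 and 0.1002, and primed 3 and non-primed 3 thus shared little.

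Nuclear members differed little, and naive libraries varied most in their mean. Averaged over the 81 genes, the level was 0.0297, 0.0350 and 0.0385 in primed libraries, -0.0098, -0.0012 and 0.0104 in non-primed libraries and -0.0224, -0.127 and 0.0471 in naive libraries. Primed libraries were close to each other, at 0.0344 ± 0.0044 (SD, n = 3), while naive libraries lay at -0.0341 ± 0.0877 (SD, n = 3) and spanned both injected groups. Naive 2, the lowest, held the lowest value of 42 of the 81 genes (51.9%), against 19.7% of all tested genes. Without naive 2 the mean nuclear difference was 0.02 for primed against naive cultures, where all libraries gave 0.07, and -0.01 for non-primed against naive cultures, where they gave 0.03. Between primed and non-primed cultures the mean nuclear difference was 0.0395, 0.0362 and 0.0281 in libraries numbered 1, 2 and 3. Since every primed mean lay above every non-primed mean, any other pairing would also give differences above 0.

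Macrophage markers differed between the same groups. All 13 tested macrophage markers were higher in primed and in non-primed than in naive cultures, with a median difference of 2.01 for primed and 1.87 for non-primed cultures, and none passed the threshold. Their part in the member values was not tested beyond the fit that follows. Naive 2, with 9.62 rlog over the macrophage list, was nearer the injected libraries than naive 1 at 7.55 and naive 3 at 7.21. With the macrophage mean as a covariate, the mean nuclear difference was 0.16 for primed and 0.12 for non-primed against naive cultures, and that of the mitochondrial genes was -0.45 for primed and -0.15 for non-primed. No member passed the threshold in that fit. Adipocyte markers lay the other way: of 7 tested, 5 in primed and 6 in non-primed cultures were below naive cultures, with median differences of -0.13 for primed and -0.39 for non-primed cultures, and none passed. Adipoq, an adipocyte hormone, differed by -2.05 in primed and -2.56 in non-primed cultures (adjusted p = 0.281 and 0.220), and Cfd, adipsin, by -2.15 in primed and -2.83 in non-primed cultures (adjusted p = 0.328 and 0.244). These 2 had the largest differences of the list. Lpl lay on the other side of 0, at 0.21 in primed and 0.03 in non-primed cultures, and Fabp4 lay at 0.03 and -0.16. The mean deviation of the 7 tested markers was 0.34, -0.63 and -0.15 in primed, -0.41, -0.69 and -0.44 in non-primed and 1.16, 1.41 and -0.59 in naive libraries. Naive 3 thus stood with the injected libraries. Of the 10 adipocyte markers 1, Lep, was listed at 0. The part of these markers in the member values was not tested.

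**Figure D4:**
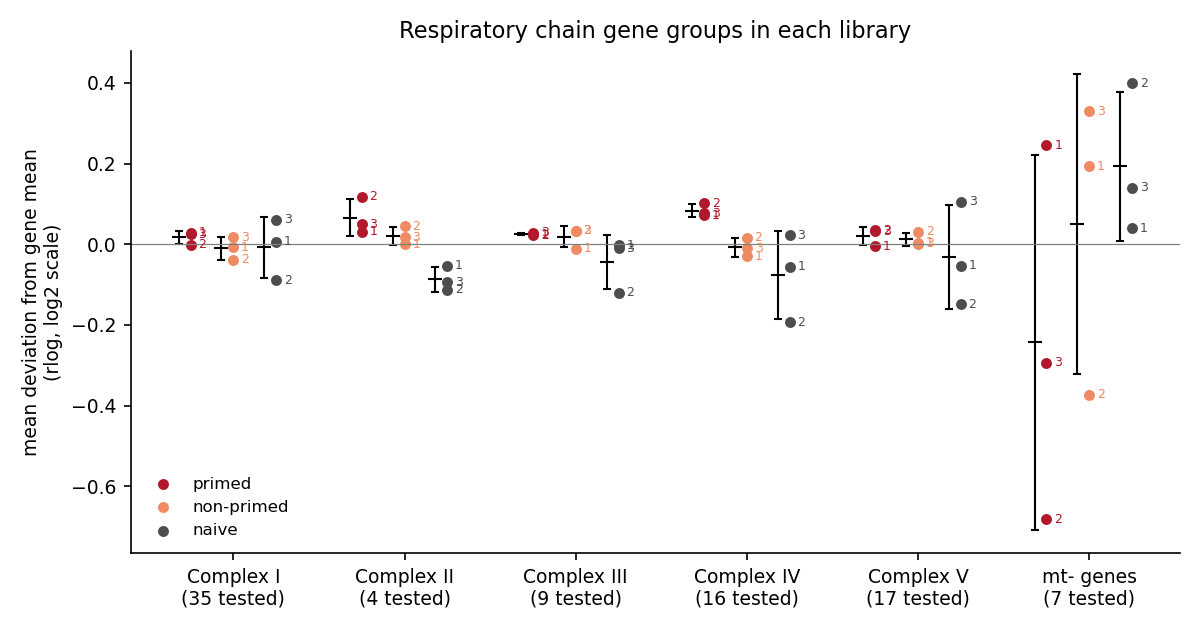
Mean deviation from the gene mean (rlog, log2 scale) of each complex's tested nuclear genes and of the mt- genes, by library (numbered points), with the group mean and SD (bars, n = 3). Naive libraries lie below both injected groups in complex II, and the mt- genes spread most.

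Counted by groups that do not overlap, 13 members had every primed library above every naive library (14.8% of members, against 8.97% of all tested genes) and 0 had every primed library below (0%, against 8.18%). For non-primed against naive cultures 8 members were higher without overlap (9.09%, against 11.6%) and 2 lower (2.27%, against 10.3%). Primed libraries were all above non-primed ones in 9 members (10.2%, against 6.31%) and all below in 1, Atp5g3 (1.14%, against 5.25%). All of these members were nuclear. Of the 77 tested genes for mitochondrial ribosomal proteins, 13 were higher without overlap in primed than in non-primed cultures (16.9%) and 1 lower (1.3%).

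Complex I, the entry point for electrons from NADH, had 35 nuclear members tested. Its median difference was 0.03 for primed and -0.02 for non-primed against naive cultures, and 0.04 for primed against non-primed cultures. Ndufv3, an accessory subunit of the NADH-binding module (chromosome 17, 31520115 to 31531331), had 11.70, 11.86 and 11.84 rlog in primed libraries, 11.60, 11.78 and 11.67 in non-primed libraries and 11.48, 11.25 and 11.56 in naive libraries. Every injected library was above every naive one, with a difference of 0.37 for primed against naive cultures (SE 0.10, 1.29-fold, adjusted p = 0.151) and 0.25 for non-primed against naive cultures (SE 0.10, adjusted p = 0.265). The accessory subunits Ndufb7 and Ndufa10 had primed libraries above all others, by 0.23 and 0.15 over naive cultures (adjusted p = 0.248 and 0.288).

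Core subunits of complex I that carry the electrons differed little or ran the other way. Ndufs7, an iron-sulfur subunit beside the quinone site, had 9.66, 9.53 and 9.69 rlog in non-primed libraries against 9.80, 9.75 and 9.88 in naive libraries. The groups did not overlap, with a difference of -0.18 (SE 0.08, adjusted p = 0.336), whereas primed libraries, at 9.79, 9.66 and 9.63, overlapped naive ones. Ndufv1, which binds NADH, differed by 0.01 in primed and -0.02 in non-primed from naive cultures, and Ndufs1, the largest iron-sulfur subunit, by 0.08 in primed and 0.10 in non-primed cultures. Ndufb6, of the membrane arm, had the largest difference of the nuclear complex I members between injected groups, at -0.23 for primed against non-primed cultures (SE 0.14), with overlapping values.

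Complex II, succinate dehydrogenase, was the only complex whose 4 members were all above naive cultures in both injected groups and higher in primed than in non-primed cultures. Its library means were 0.03, 0.12 and 0.05 in primed, -0.0002, 0.04 and 0.02 in non-primed and -0.05, -0.11 and -0.09 in naive libraries, without overlap between injected and naive. Sdhb, the iron-sulfur subunit (chromosome 4, 140961203 to 140979193), had 11.30, 11.44 and 11.32 rlog in primed libraries, 11.30, 11.34 and 11.34 in non-primed libraries and 11.18, 11.07 and 10.88 in naive libraries. Its difference was 0.31 for primed (SE 0.09, 1.24-fold, adjusted p = 0.168) and 0.28 for non-primed against naive cultures (SE 0.09, 1.22-fold, adjusted p = 0.201), the smallest p of any member in the second of these. Sdhc, a membrane anchor, had primed libraries at 12.04, 12.17 and 12.13 above all others and differed by 0.16 from naive cultures (adjusted p = 0.314). Sdhd, the other anchor, and Sdha, the flavin-binding subunit, overlapped in all comparisons, with differences of 0.09 and 0.05 for primed against naive cultures.

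Complex III, the cytochrome bc1 complex, had 9 nuclear members tested, and 7 were above naive cultures in each injected group, with medians of 0.03 for primed and 0.04 for non-primed cultures. Uqcrh, the acidic hinge protein beside cytochrome c1 (chromosome 4, 116066965 to 116075071), had 12.36, 12.53 and 12.43 rlog in primed libraries, 12.24, 12.37 and 12.31 in non-primed libraries and 12.18, 12.22 and 11.82 in naive libraries. Injected and naive libraries did not overlap, with a difference of 0.37 for primed (SE 0.11, adjusted p = 0.189) and 0.23 for non-primed against naive cultures (SE 0.11, adjusted p = 0.368). The electron-carrying subunits Cyc1, cytochrome c1, and Uqcrfs1, the Rieske protein, differed by 0.02 and 0.09 for primed against naive cultures, and the core protein Uqcrc1 by 0.01. Uqcrq, a small subunit, lay at 0.12 and 0.19 for primed and non-primed against naive cultures, with overlap.

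Complex V, the ATP synthase, had 17 nuclear members tested, of which 10 were above naive cultures in each injected group, with medians of 0.04 for primed and 0.03 for non-primed cultures. Its leading gene was Atp5g2, a gene for the c subunit of the rotor ring (chromosome 15, 102662864 to 102672352), with 9.42, 9.68 and 9.52 rlog in primed libraries, 9.31, 9.52 and 9.23 in non-primed libraries and 9.30, 8.93 and 9.23 in naive libraries. Primed libraries were all above naive ones, by 0.39 (SE 0.13, 1.31-fold, adjusted p = 0.210). Atp5g1 and Atp5g3 encode the same mature c subunit. Atp5g1 differed by 0.25 for primed against naive cultures (adjusted p = 0.353), while Atp5g3 differed by -0.12 and was lower in every primed than in every non-primed library, at 10.88, 10.63 and 10.81 against 10.95, 10.91 and 10.93 rlog (difference -0.16, SE 0.11). Atp5a1 and Atp5b, the subunits of the catalytic head, differed by 0.11 and 0.10, and Atp5j, coupling factor 6 of the stalk, by -0.18, with overlapping groups.

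Some nuclear members share sequence with copies elsewhere. Of the 81 tested, 40 shared at least 1 window of 50 bases with another annotated locus, and 11 shared more than 10% of their windows. Atp5g2 shared the most, 36.7%, with Gm10175, a transcribed processed pseudogene on chromosome 7 that was listed at a mean rlog of -1.47. Cox7a2l shared 13.8% and Atp5g1 11.1%, so the values of these genes are uncertain as far as reads were split. Cox7a1, Cox4i2 and Sdhb shared 0%.

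Complex IV, cytochrome c oxidase, held the largest nuclear differences, and they were in its alternative subunits. Of 16 tested nuclear members 12 were above naive cultures in each injected group, with medians of 0.15 for primed and 0.07 for non-primed cultures, and 13 were higher in primed than in non-primed cultures. Cox7a1, the form of subunit 7a known from heart and skeletal muscle (chromosome 7, 30184144 to 30186078), had 5.98, 5.74 and 5.55 rlog in primed libraries, 5.44, 5.30 and 5.55 in non-primed libraries and 5.10, 5.10 and 4.98 in naive libraries. The groups stood in the order primed, non-primed, naive without overlap, although primed 3 and non-primed 3 were equal to the second decimal. The difference was 0.70 for primed (SE 0.15, 1.62-fold, adjusted p = 0.111) and 0.37 for non-primed against naive cultures (SE 0.15, 1.29-fold, adjusted p = 0.294), and 0.32 for primed against non-primed cultures (SE 0.15, unadjusted p = 0.0618). Its counterpart Cox7a2, the form found in most tissues, differed by -0.05 in primed and -0.11 in non-primed from naive cultures, with overlapping groups.

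Most markers of skeletal muscle lay in the same direction. Over 15 markers the mean rlog was 3.53, 4.12 and 4.68 in primed libraries, 3.80, 4.41 and 4.21 in non-primed libraries and 3.38, 3.62 and 3.46 in naive libraries. Of the 10 tested, 9 were above naive cultures in each injected group and 0 passed the threshold. The other, Actn3, was lower in every injected than in every naive library, by -0.62 for primed and -0.69 for non-primed cultures. None of the 15 was listed at 0, but Ckm lay only between -0.153 and 0.033 rlog. Cox7a1 was highest in primed 1, where the muscle markers were lowest among the injected libraries. Cox6a2, another muscle form, had 3.19, 3.64 and 3.50 rlog in primed, 3.35, 3.71 and 3.44 in non-primed and 2.91, 3.05 and 4.78 in naive libraries. All injected libraries thus lay above naive 1 and naive 2 but below naive 3. Cox8b, also a muscle form, lay between 0.93 and 1.40 in all 9. It was below the filter, where rlog draws values towards the gene mean, so a pattern in it could not be read. The part of muscle-lineage RNA in the Cox7a1 values was not tested.

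Cox4i2, the form of subunit 4 known from lung and induced by low oxygen (chromosome 2, 152754173 to 152765037), had 8.11, 7.85 and 8.12 rlog in primed libraries, 7.48, 7.58 and 7.54 in non-primed libraries and 7.68, 7.30 and 7.45 in naive libraries. Primed libraries were above all others, and non-primed libraries lay inside the naive range. The difference was 0.55 for primed against naive cultures (SE 0.14, 1.47-fold, adjusted p = 0.143) and 0.49 for primed against non-primed cultures (SE 0.14, 1.41-fold, unadjusted p = 0.00628), where the adjusted p was 0.9999. For non-primed against naive cultures it was 0.06 (adjusted p = 0.876). This was the only member with an unadjusted p below 0.05 between the injected groups.

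Cox4i1, the form of subunit 4 found in most tissues, was level between the injected groups. It had 12.96, 13.14 and 12.97 rlog in primed libraries, 12.92, 13.09 and 12.94 in non-primed libraries and 12.81, 12.72 and 12.80 in naive libraries, with differences of 0.25 for primed and 0.20 for non-primed from naive cultures (adjusted p = 0.218 and 0.306). The difference of Cox4i2 from Cox4i1 within a library was thus -4.85, -5.29 and -4.85 in primed, -5.44, -5.51 and -5.40 in non-primed and -5.13, -5.43 and -5.35 in naive libraries, and only its change between groups can be read, since values were not scaled for gene length. Primed and non-primed libraries did not overlap in it, while naive libraries overlapped both. Cox7a2l, which helps join complexes III and IV, had 11.93, 12.08 and 11.96 rlog in primed, 11.91, 12.06 and 11.89 in non-primed and 11.59, 11.64 and 11.89 in naive libraries, and differed by 0.29 in primed and 0.25 in non-primed from naive cultures (adjusted p = 0.215 and 0.284).

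Ndufa4, a subunit at the edge of complex IV, was lower in every non-primed than in every naive library, at 11.80, 11.81 and 11.82 against 12.01, 11.86 and 12.00 rlog (difference -0.15, SE 0.07, adjusted p = 0.360). Primed libraries had 11.88, 11.81 and 11.77 (difference from naive cultures -0.14, adjusted p = 0.350) and overlapped naive ones. Its relative Ndufa4l2, induced by low oxygen and no member by the rule, had 10.93, 11.19 and 11.10 rlog in primed libraries, 10.77, 10.85 and 10.99 in non-primed libraries and 9.83, 10.45 and 10.09 in naive libraries. Every injected library was above every naive one, by 0.95 for primed (SE 0.15, 1.93-fold, adjusted p = 0.0757) and 0.75 for non-primed against naive cultures (SE 0.15, 1.68-fold, adjusted p = 0.0933), neither past the threshold. With the replicate number as a block it passed in primed cultures (adjusted p = 0.0406). Of the other complex IV members, Cox5a differed by 0.01 and Cox8a by 0.15 for primed against naive cultures, Cox6b2, a testis form, spread from 5.81 to 7.35 over the naive libraries alone, Cox7b2 and Cox8c were listed at 0, and Cox6c2, annotated as a processed pseudogene but kept because its symbol carries no such mark, was below the filter.

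**Figure D5:**
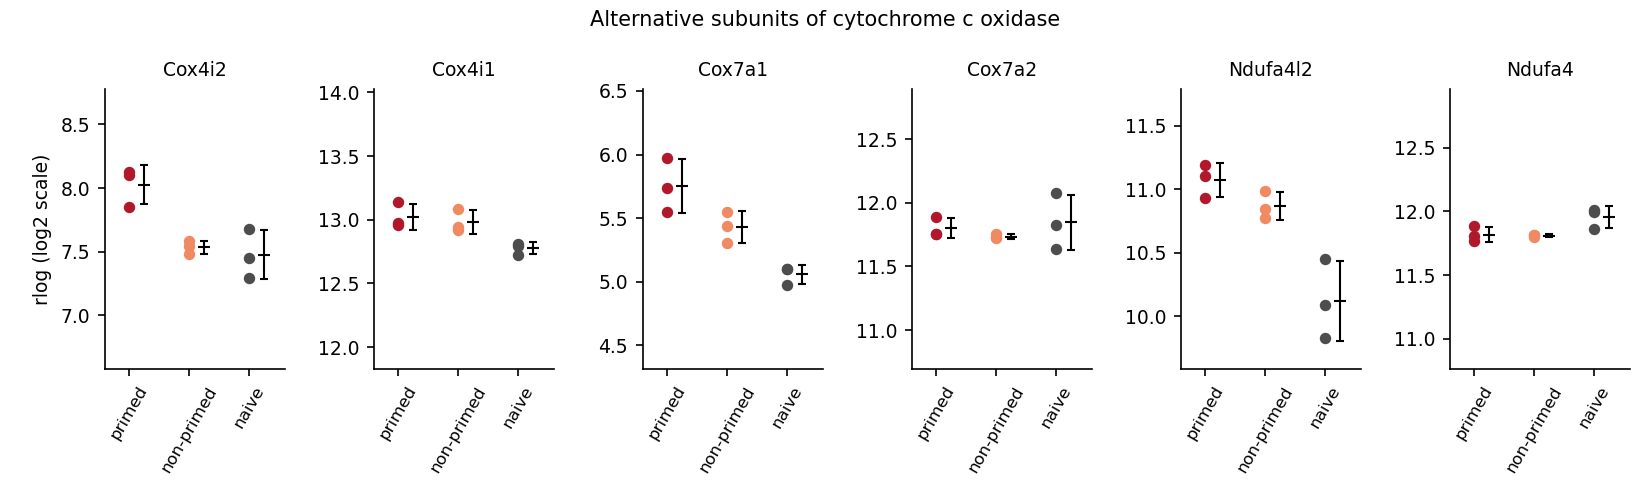
Values in rlog (log2 scale) of 3 pairs of alternative subunits, with points for libraries and bars for the group mean and SD (n = 3). Each panel spans the same range on its axis, and in each pair the first gene shows the wider gap between primed and naive libraries.

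Promoters of the nuclear members were searched for the sites of factors known to drive respiratory genes. RefSeq windows of 300 bases, 250 before and 50 after the start (GRCm38.p6), were found for 66 of the 81 tested nuclear members, with 71 windows in all. The NRF1 site, GCGCA and GCGC with any base between them, was in 25.4% of member windows, against 4.60% of 32851 windows of all genes, the ETS site CCGGAAG, which GABPA binds, in 22.5% against 8.86%, and the YY1 site AAGATGGC in 14.1% against 2.75%. The core of the hypoxia response element, ACGTG, was in 25.4% against 19.6%. Both strands were searched, and a match is a run of letters, not a bound site. The 3 genes for these factors were among the tested regulators, and none passed the threshold.

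The windows of the leading genes of complexes II to V are shown. These genes had the largest differences of primed from naive cultures among the nuclear members of their complexes. That of complex I, Ndufv3, is not shown, and its window holds 1 ACGTG and no match to the other 3 motifs. Capitals mark motif matches. Atp5g2 (chr15:102670998-102671297, minus strand) holds an NRF1 site and, on the reverse strand, ACGTG. Sdhb (chr4:140961021-140961320, plus strand) and Uqcrh (chr4:116075021-116075320, minus strand) each hold the ETS site, Uqcrh on the reverse strand. Cox7a1 (chr7:30183921-30184220, plus strand) holds ACGTG on the reverse strand and no match to the other 3 motifs.
Atp5g2: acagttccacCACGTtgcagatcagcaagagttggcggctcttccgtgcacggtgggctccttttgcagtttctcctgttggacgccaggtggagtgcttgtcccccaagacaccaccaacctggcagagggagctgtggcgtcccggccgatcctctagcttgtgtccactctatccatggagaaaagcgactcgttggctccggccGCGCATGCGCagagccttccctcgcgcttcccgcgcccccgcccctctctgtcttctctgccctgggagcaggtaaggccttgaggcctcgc
Sdhb: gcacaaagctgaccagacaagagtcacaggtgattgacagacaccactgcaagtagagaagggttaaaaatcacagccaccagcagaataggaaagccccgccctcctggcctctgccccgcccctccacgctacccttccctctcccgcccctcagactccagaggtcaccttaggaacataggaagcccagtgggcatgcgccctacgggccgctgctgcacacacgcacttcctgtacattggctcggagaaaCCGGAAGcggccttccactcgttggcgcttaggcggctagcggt
Uqcrh: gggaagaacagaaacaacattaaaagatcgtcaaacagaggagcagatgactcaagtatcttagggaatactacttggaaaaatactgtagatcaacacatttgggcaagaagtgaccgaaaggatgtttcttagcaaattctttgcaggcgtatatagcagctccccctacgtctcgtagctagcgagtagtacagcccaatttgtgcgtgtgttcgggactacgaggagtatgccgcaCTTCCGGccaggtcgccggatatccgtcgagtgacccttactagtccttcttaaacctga
Cox7a1: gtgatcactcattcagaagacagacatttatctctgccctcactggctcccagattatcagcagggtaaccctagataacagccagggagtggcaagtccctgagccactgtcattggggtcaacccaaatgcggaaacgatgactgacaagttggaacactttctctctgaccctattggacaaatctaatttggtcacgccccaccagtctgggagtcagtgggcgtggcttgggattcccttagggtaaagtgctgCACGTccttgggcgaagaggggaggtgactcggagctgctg

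Among genes that build and regulate the chain, calls were found only in the list of oxygen-dependent modifiers of respiration, which was chosen with earlier results of these data known. All 9 of its genes, Cox4i2 included, were above naive cultures in both injected groups, with a median difference of 0.66 for primed and 0.70 for non-primed cultures. Bnip3, a mitophagy receptor of the outer membrane, had 12.34, 12.21 and 12.33 rlog in primed libraries, 12.29, 12.27 and 12.49 in non-primed libraries and 11.65, 11.61 and 11.51 in naive libraries. It rose by 0.70 in primed (SE 0.09, adjusted p = 0.0345) and by 0.76 in non-primed cultures (SE 0.09, adjusted p = 0.0303). Pdk1, the kinase that holds pyruvate back from the citric acid cycle, rose by 0.70 in non-primed cultures (SE 0.09, adjusted p = 0.0435) and stood at 0.66 in primed cultures (adjusted p = 0.0519). Fam162a, a mitochondrial protein induced by low oxygen, rose by 0.78 in primed cultures (SE 0.11, adjusted p = 0.0468) and stood at 0.71 in non-primed cultures (adjusted p = 0.0576). These calls are near the threshold, and each was lost when primed 2, primed 3 or any non-primed library was left out (adjusted p from 0.0568 to 0.262), that of Fam162a also without primed 1 (adjusted p = 0.0592). They were also lost with no filter on low values, with no mean-variance trend and in fits of 2 groups alone. With the replicate number as a block the calls of Bnip3 (adjusted p = 0.0501) and Pdk1 (adjusted p = 0.0647) in non-primed and of Fam162a in primed cultures (adjusted p = 0.0552) were lost, while Bnip3 in primed cultures was kept (adjusted p = 0.0483). With the macrophage mean as a covariate the difference of Bnip3 from naive cultures was 0.72 in primed and 0.77 in non-primed cultures, and the 4 calls of these genes had adjusted p-values of 0.132 to 0.246.

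Assembly factors and carriers had no calls. Over the lists for assembly of complexes I to V, 49 genes tested in all, 0 were called in any comparison, with list medians of 0.05 to 0.18 for primed and 0.03 to 0.11 for non-primed against naive cultures. The widest differences were in complex IV assembly, where Cox16 and Cox20 lay at -0.67 and -0.57 for primed against naive cultures (adjusted p = 0.258 and 0.242). The 14 electron carrier genes, cytochrome c and the enzymes of coenzyme Q synthesis, had medians of 0.05 for primed and 0.01 for non-primed cultures, with Coq7, a hydroxylase of that pathway, at 0.29 for primed and 0.21 for non-primed cultures (adjusted p = 0.300 and 0.482).

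Genes that copy, transcribe and process mitochondrial DNA and RNA were more often below than above naive cultures, and 0 were called. Of 22 tested, 15 were below naive cultures in each injected group, with medians of -0.08 for primed and -0.04 for non-primed cultures. Polrmt, the mitochondrial RNA polymerase, lay at -0.25 in primed and -0.26 in non-primed cultures (adjusted p = 0.265 and 0.281), and Fastkd1, an RNA-binding protein of mitochondria, at -0.46 in primed and -0.42 in non-primed cultures (adjusted p = 0.212 and 0.248), both without overlap with naive cultures. Polg, the catalytic subunit of the mitochondrial DNA polymerase, lay on the other side of 0, also without overlap, at 0.20 in primed and 0.17 in non-primed cultures (adjusted p = 0.268 and 0.367). Of 10 tested regulators of mitochondrial biogenesis, 7 were below naive cultures in each injected group, among them Pprc1, a coactivator of NRF1, at -0.28 in primed and -0.30 in non-primed cultures (adjusted p = 0.247 and 0.235). Esrra, a nuclear receptor that works with these coactivators, was above, at 0.19 in primed cultures, without overlap, and 0.14 in non-primed cultures, with overlap (adjusted p = 0.302 and 0.479). The 77 tested mitochondrial ribosomal protein genes, also nuclear, had medians of 0.03 for primed and 0.02 for non-primed against naive cultures, and 0 were called. The nuclear respiratory chain genes had medians of 0.07 and 0.02. Between primed and non-primed cultures 55 of the 77 were higher (71.4%, against 50.3% of all tested genes), with a median of 0.03. Among nuclear respiratory chain genes 57 of 81 were higher there (70.4%), also with a median of 0.03.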

How the data were processed

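RNA of cultured synovial fibroblasts was sequenced in 9 libraries, 3 in each of 3 groups. Per the labels' protocols, 1000 ng of column-purified RNA per sample went into a stranded mRNA kit. The submitters' processing notes list DESeq2, featureCounts from Subread 1.6.1, STAR 2.5.4a and cutadapt 2.5, and the build GRCm38. Strand setting, rlog options and annotation release were not given in the sources used here. What the authors deposited is 1 table of rlog values on a log2 scale, so depth is unknown and no interval that needs it is given. The transformation understates differences of weakly expressed genes.

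The members and gene lists were chosen with earlier results of these data known. Groups came from sample titles, symbols from a table that matched 47224 of 47729 identifiers, and coordinates from GENCODE M21. limma 3.58.1 in R 4.3.3, checked on simulated data, fitted 1 mean per group to all 9 libraries, with a mean-variance trend, two-sided tests and Benjamini-Hochberg adjustment over 15623 genes with a mean rlog of at least 3. An exact test of 3 libraries against 3 cannot go below p = 0.1. Lists were described by counts and medians. Named were the mt- genes, the 3 smallest p-values per complex and comparison, core subunits, alternative subunits, and the leading genes of each list, of which 1 gene is not reported here. Primed and non-primed libraries of the same number were taken as possibly paired. Their deviations from group means correlated for numbers 1 and 2 (r = 0.418 and 0.608) but little for number 3 (r = 0.100). Naive and injected libraries of the same number gave r from -0.160 to 0.152. Primed and non-primed libraries of different numbers reached at most 0.275, for primed 1 with non-primed 3. Alternatives were filters, trend, fits of 2 groups, centring, quantile normalization, a replicate block, sample weights, a macrophage covariate and leaving out libraries.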

Additional observations from a re-analysis of the deposited data

How the results depend on the processing

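No member passed the threshold under any alternative tried other than sample weights. Between primed and naive cultures these called 2 of 88 members (Ndufv3 and Cox7a2l), against 733 of all 15623 tested genes. Between primed and non-primed cultures they called 17 of 88 members, against 2109 of all 15623 tested genes. Among the 17 were 6 of the mt- genes and Cox4i2. Those weights ran from 0.133 for naive 3 to 10.4 for non-primed 1. Counts over all genes, 22 for non-primed and 16 for primed against naive cultures, moved as follows. Non-primed against naive cultures gave 0 genes with no filter, 13 with a mean rlog of at least 6, 5 with no trend, 7 from the 2 groups alone, 621 with sample weights, 1 with the macrophage covariate and 0 without primed 2 and non-primed 2 together, an alternative chosen after seeing the data. Primed against naive cultures gave 0 genes with no filter, no trend, the 2 groups alone, or without those libraries, 733 with sample weights and 1 with the macrophage covariate. Where limma called 0, unadjusted p-values below 0.05 numbered 3308 for primed and 3118 for non-primed against naive cultures with no filter, 2577 for primed with no trend, 1658 for primed from 2 groups alone, and 1084 for primed and 1354 for non-primed without those libraries. Leaving out 1 library gave 0 to 355 genes for non-primed and 0 to 356 for primed against naive cultures, both highest without naive 2.

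With the replicate block, 51 genes passed between primed and naive cultures, 17 between non-primed and naive and 0 between primed and non-primed cultures, with 0 members in each. The block added Ndufa4l2 (adjusted p = 0.0406) in primed against naive cultures and, besides the losses given with Bnip3, Pdk1 and Fam162a, changed no call of a member. With the macrophage covariate the mean nuclear difference moved to 0.163 for primed and 0.121 for non-primed against naive cultures, where the fit without it gave 0.0685 and 0.0339. Leaving out 1 library gave mean mitochondrial differences of -0.681 to -0.217 for primed against naive, -0.283 to 0.0689 for non-primed against naive and -0.538 to -0.0745 for primed against non-primed cultures. The mean nuclear differences were then 0.0220 to 0.109 for primed against naive, -0.0126 to 0.0745 for non-primed against naive and 0.0298 to 0.0399 for primed against non-primed cultures. With sample weights the mean mitochondrial difference of non-primed from naive cultures was 0.0511, against -0.143 with equal weights. The cause of these shifts was not tested. Groups of 3 libraries limit the precision, and levels of the 6 mt- genes listed at 0 cannot be read.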
